A study of Mus musculus with 4 samples.

Results

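The transcripts of 40 chemokine genes (29 ligands and 11 receptors) were followed in kidney RNA of mice, collected 2 weeks after surgery. The surgery was either ligation of the bile duct (BDL), a model of cholestasis in which bile can no longer drain, or a sham operation. Sham surgery omits the ligation. Each group had 2 kidneys, called biological replicates by the design text, and each RNA was hybridised alone to a 1-colour Agilent array. The labels used here name no strain, sex, age or genotype, and the groups differ in their labels by the operation alone. Members were the array probes whose transcript accession belongs to one of the 40 genes in the RefSeq table. A probe was found for 39 genes of the 20656 named on the array, 45 probes in all. Cxcl11 was not matched to a probe. The whole kidney was sampled, so fewer cells of a type and less RNA per cell cannot be told apart.

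Chemokines are small secreted proteins, named CC, CXC, CX3C or XC after the spacing of their first cysteines, that guide leukocytes through G protein-coupled receptors. Inflammatory chemokines are switched on in injured epithelium, endothelium and macrophages by NF-kB and by interferons. Homeostatic chemokines position cells in resting tissue and in lymphoid organs. In the kidney, tubule cells, vessels and resident macrophages make them, and their receptors mostly report on the leukocytes present.

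The upstream sequences of 4 members are shown because the results below turn on these genes. Cxcl9 and Cxcl10 encode ligands of CXCR3, Cxcr3 encodes that receptor, and Cxcl13 encodes the B cell attractant. Each is the 250 bases before the transcript start, from RefSeq on GRCm38.p6, written 5′ to 3′ on the gene's strand. Capitals mark matches, on either strand, to a core of the interferon-stimulated response element (GAAA, any 2 bases, GAAA) or of NF-kB sites (GGGA, any 4 bases, CC).
Cxcl9, chr5:92328080-92328329, minus strand: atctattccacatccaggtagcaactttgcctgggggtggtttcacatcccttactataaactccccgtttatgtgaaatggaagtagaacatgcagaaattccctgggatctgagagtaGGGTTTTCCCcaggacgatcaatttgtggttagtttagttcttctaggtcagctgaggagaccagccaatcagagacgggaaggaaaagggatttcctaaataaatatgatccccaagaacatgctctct
Cxcl10, chr5:92348890-92349139, minus strand: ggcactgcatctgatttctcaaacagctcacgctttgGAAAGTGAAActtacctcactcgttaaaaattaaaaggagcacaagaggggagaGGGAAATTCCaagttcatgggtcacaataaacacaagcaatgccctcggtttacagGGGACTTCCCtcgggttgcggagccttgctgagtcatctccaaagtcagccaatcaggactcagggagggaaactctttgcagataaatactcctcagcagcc
Cxcl13, chr5:95956689-95956938, plus strand: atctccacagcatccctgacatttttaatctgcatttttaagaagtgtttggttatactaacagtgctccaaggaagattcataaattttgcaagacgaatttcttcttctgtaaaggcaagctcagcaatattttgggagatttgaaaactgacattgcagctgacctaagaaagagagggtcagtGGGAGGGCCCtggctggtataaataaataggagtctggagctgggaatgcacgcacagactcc
Cxcr3, chrX:101734148-101734397, minus strand: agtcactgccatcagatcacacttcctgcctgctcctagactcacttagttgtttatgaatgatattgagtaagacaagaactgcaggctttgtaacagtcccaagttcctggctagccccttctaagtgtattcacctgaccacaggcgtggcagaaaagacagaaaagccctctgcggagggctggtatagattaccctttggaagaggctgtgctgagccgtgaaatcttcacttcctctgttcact
Cxcl10 held 1 match to the interferon element, which starts 213 bases before the transcript, and 2 to the NF-kB core. Cxcl9 and Cxcl13 held 1 NF-kB match each, and the Cxcr3 window held 0 of either. Of all 32851 promoter windows in the table, 2.98% held the interferon core and 17.6% the NF-kB core. Of the 32 windows of the 30 members in the table, 3 held the first (Ccl19, Cxcl10 and Cxcl14) and 12 the second. A match describes the letters and is not a measured binding site.

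Levels are log2 processed signals from which the array's 75th percentile was taken away, so that 0 is that percentile. Differences are BDL minus sham. Probes entered the comparison if both sham arrays, or both BDL arrays, showed them well above background. Kept were 29 members (20 ligands and 9 receptors), 25 of them well above background on all 4 arrays. Between 57.7% and 63.1% of the spots were well above background on each array. All 14 listed markers of kidney segments, from the proximal tubule gene Lrp2 to the podocyte gene Nphs1, were among the kept genes. One array stood apart before any comparison. Sham replicate 1 was the highest of the 4 arrays in 18 of the 29 kept members (62.1%), against 35.4% of all 24043 features. Its excess over the other 3 arrays, taken as their mean, was at least 2-fold in 12 members, against 3.69% of all features. Against sham replicate 2 alone it was at least 2-fold in 15 members, where the share over all features was 4.19%. Results are therefore given with and without that array.

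No member passed the test. With limma and Benjamini-Hochberg adjustment over the 24043 features, 0 members and 0% of all features had an adjusted p under 0.05. The adjusted p of the members lay between 0.812 and 0.997. At an unadjusted p under 0.05 there were 4 members, against 5.62% of all features. Cxcl13 was the higher one in BDL (2.59% of all features), set against sham signals that were not well above background, and Ccr6, Cxcr3 and Cxcr6 were lower (3.04% of all features).

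Group means were lower in BDL for 22 of the 29 members and higher for 7. The median difference was -0.39, beside -0.01 over all features. Without sham replicate 1 it was -0.03, beside -0.003 over all features, and without sham replicate 2 it was -0.86. Both BDL arrays lay below both sham arrays in 8 members (27.6%, against 19.2% of all features), 5 of them receptors. Both lay above in 2 members, Cxcl13 and Cxcr2 (6.90%, against 17.4% of all features). That makes 10 members without overlap in either direction, where the share over all features was 36.6%. By group means, 8 members were at least 2-fold lower and 2 at least 2-fold higher, against 2.65% and 2% of all features. Without sham replicate 1 the 3 arrays left were apart in 11 members with BDL lower and 11 with BDL higher (34.7% and 34.9% of all features). Without sham replicate 2 they were apart in 19 with BDL lower (41.4% of all features). The gap between the sham arrays exceeded the size of the group difference in 22 members.

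**Figure D1:**
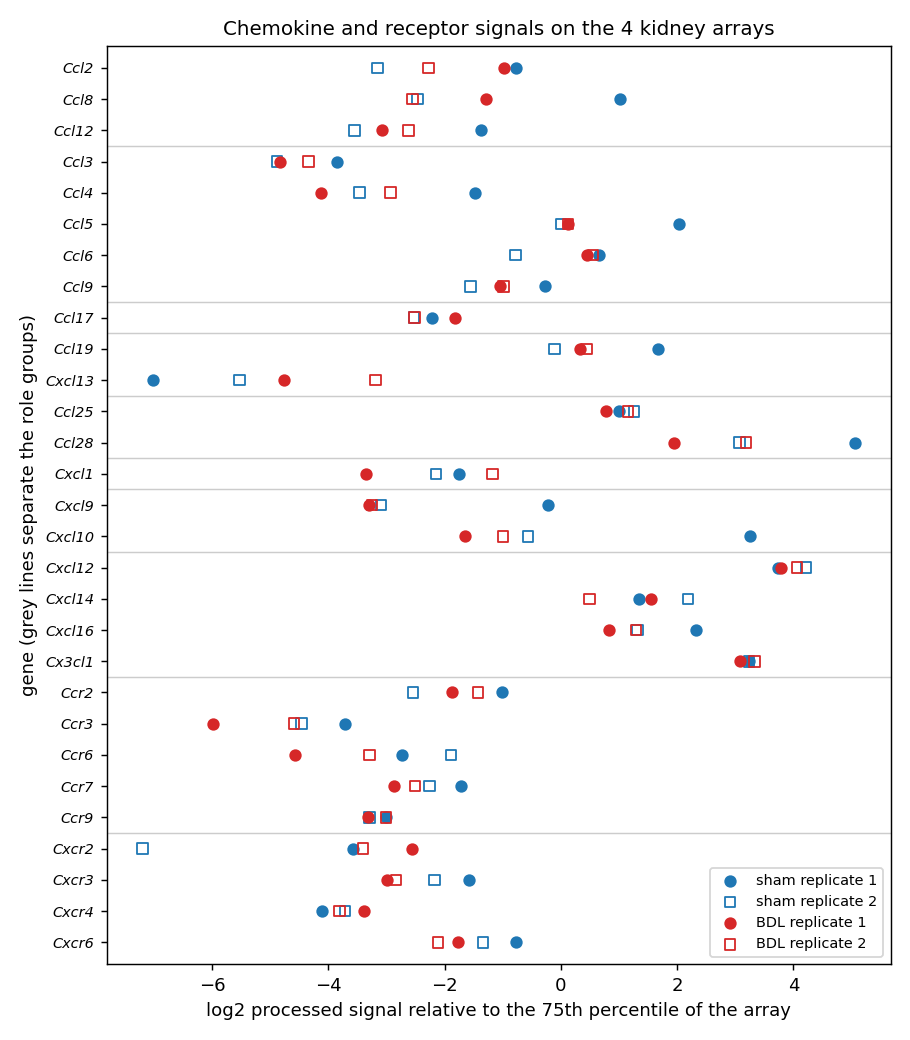
Level of each of the 29 kept members on each of the 4 arrays, as log2 processed signal relative to the 75th percentile of the array (x axis), by gene (y axis, grouped by role). Sham replicate 1 (filled blue circle) is the rightmost point in 18 genes. Levels of different genes come from different probes and are not comparable along the x axis.

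Interferon-induced ligands of CXCR3 gave the largest difference among the kept members in the downward direction, and it lay mostly on 1 sham array. Cxcl10, which draws activated T and NK cells, was at 3.25 and -0.57 in sham kidneys and at -1.65 and -0.998 in BDL kidneys. Sham replicate 1 exceeded the average of the others by 4.32, and the groups did not overlap. The difference was -2.67, or 6.34-fold lower in BDL (SE 1.30, limma adjusted p = 0.872). Its 95% interval ran from 0.0146-fold to 1.70-fold. It was -0.76 without sham replicate 1 and -4.57 without sham replicate 2.

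Cxcl9, a second CXCR3 ligand induced by interferon gamma, had the same order of arrays. Its levels were -0.22 and -3.10 in sham kidneys and -3.31 and -3.25 in BDL kidneys. The groups were apart by a small margin once sham replicate 1 is set aside. The difference was -1.62 (SE 0.97, adjusted p = 0.872), and -0.18 without sham replicate 1. A further Cxcl9 probe gave -1.50 (SE 0.74), also with no overlap.

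Other genes of this response shared the high array. Irf1, a transcription factor induced by interferon gamma, was at 5.60 in sham replicate 1 and at 1.77, 1.86 and 1.71 on the other arrays. Ifng itself was well above background on sham replicate 1 alone. Of the 19 kept interferon response genes, of 22 listed, sham replicate 1 was the highest array in 17. Their summed signal was 423 times the 75th percentile on sham replicate 1 and 30.0 on sham replicate 2, against 25.8 and 21.5 on the BDL arrays. The list had a median difference of -1.59, and of -0.47 without sham replicate 1. Of the 19, 14 were lower in BDL with no overlap and 0 higher (19.2% and 17.4% of all features). Ifit2 (-1.10, SE 0.21, adjusted p = 0.673) differed by -0.95 without that array. The part of this response in the chemokine values was not tested.

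**Figure D2:**
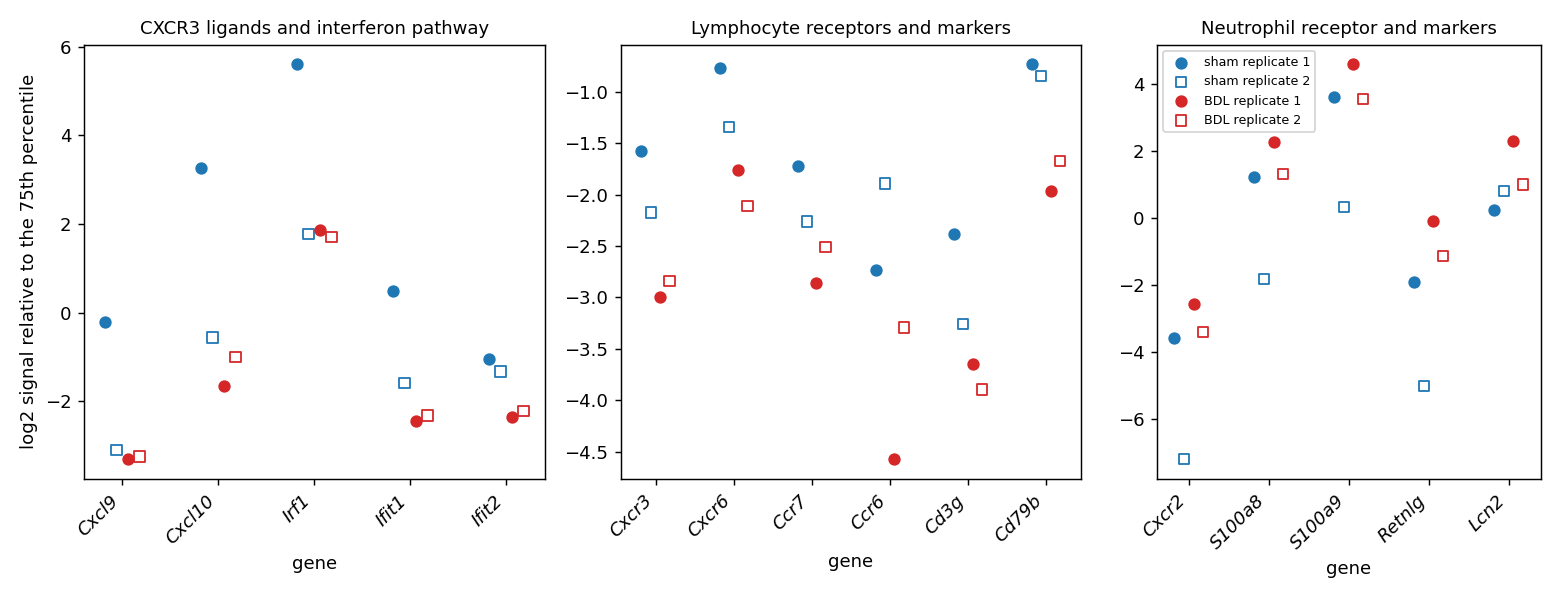
Level of selected members and marker genes on each array, as log2 signal relative to the 75th percentile of the array, in 3 panels (CXCR3 ligands with interferon pathway genes, lymphocyte receptors with T and B cell markers, the neutrophil receptor with neutrophil markers). Sham replicate 1 is high in the first panel, both BDL arrays are low in the second, and sham replicate 2 is low for Cxcr2, S100a8, S100a9 and Retnlg in the third.

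Monocyte-attracting CC ligands, which act mainly through CCR2, overlapped between the groups in all 3 kept members, and sham replicate 1 was the highest array in each. Ccl8 was at 1.02 and -2.46 in sham kidneys and at -1.28 and -2.55 in BDL kidneys. Sham replicate 1 exceeded the average of the others by 3.12. The difference of Ccl8 was -1.20 (SE 1.24, adjusted p = 0.902), and 0.54 without sham replicate 1. Ccl2, the main monocyte attractant, was at -0.77 and -3.16 in sham kidneys and at -0.98 and -2.28 in BDL kidneys. Replicate 1 was thus high and replicate 2 low in both groups. The difference of 0.33 (SE 0.92) was 1.53 without sham replicate 1 and -0.86 without sham replicate 2. Ccl12, a mouse relative of Ccl2, differed by -0.39 (SE 0.76), and by 0.70 without sham replicate 1. Ccl7 was well above background on replicate 1 of each group alone and was not kept.

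Inflammatory CC ligands, which draw monocytes and T cells, were kept in 5 of 5 cases, all with sham replicate 1 highest and with overlapping groups. Ccl5, made by T cells, NK cells and injured tubules, was at 2.03 and 0.00 in sham kidneys and at 0.13 and 0.12 in BDL kidneys. The BDL kidneys thus matched sham replicate 2 closely. The difference was -0.89 (SE 0.70, adjusted p = 0.886), and 0.12 without sham replicate 1. Ccl4, or MIP-1 beta, was at -1.47 and -3.46 in sham and at -4.13 and -2.93 in BDL kidneys. Its difference of -1.06 (SE 0.79) shrank to -0.06 without sham replicate 1. Ccl3, its close relative, differed by -0.21 (SE 0.42) and was detected above background in only 1 BDL kidney. Ccl6 and Ccl9, CCR1 ligands of myeloid cells, differed by 0.57 (SE 0.51) and -0.11 (SE 0.47). These 5 genes lie next to one another on their chromosome, as do Ccl2, Ccl7, Ccl11, Ccl12 and Ccl8. In all 8 kept genes of both runs sham replicate 1 was the highest array, by 0.58 to 3.12 over the mean of the other 3.

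**Figure D3:**
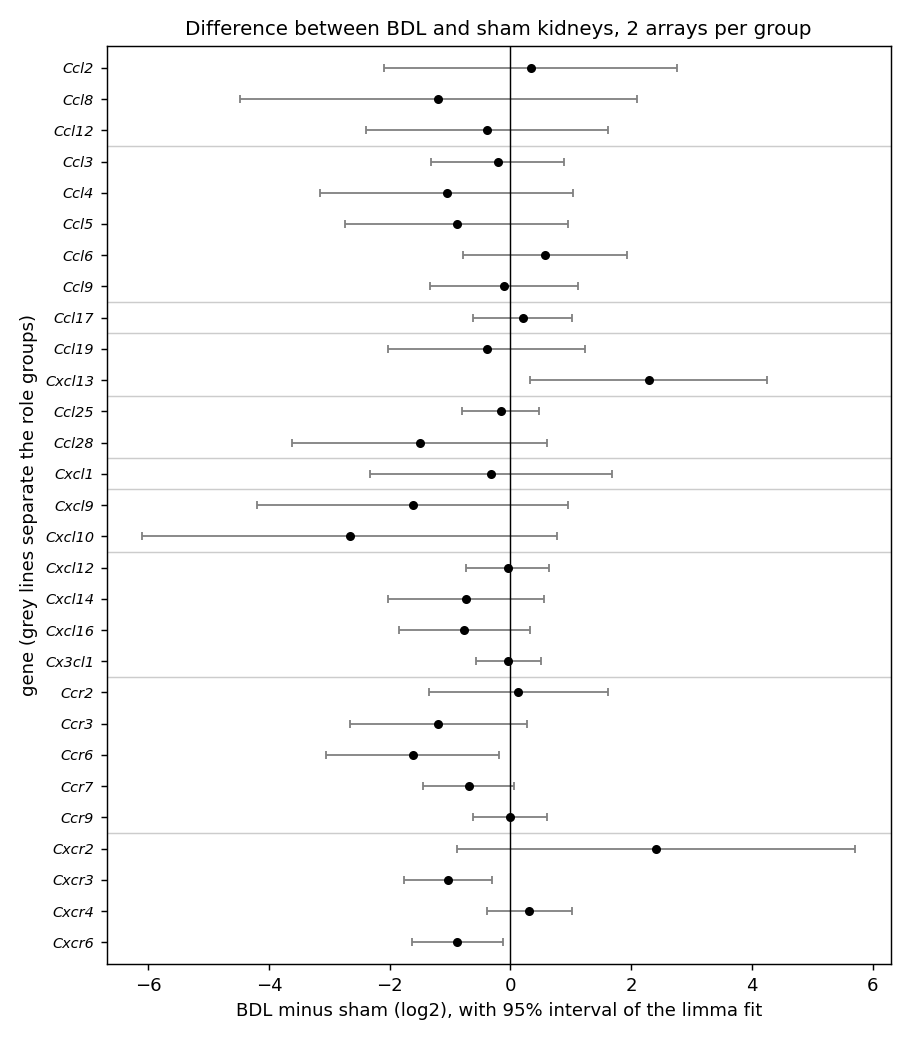
BDL minus sham difference of each of the 29 kept members (points, log2, x axis) with the 95% interval of the limma fit (bars), by gene (y axis). The intervals of Cxcl13, Ccr6, Cxcr3 and Cxcr6 lie on 1 side of 0 before adjustment for the number of features. None passed the adjusted threshold, and the sham values of Cxcl13 were not well above background.

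Of the ligands of lymphoid tissue, Cxcl13 was apart between the groups and Ccl19 overlapped. Cxcl13, which gathers B cells into follicles, stayed near background in both sham kidneys (-7.01 and -5.52) and was well above it on both BDL arrays (-4.76 and -3.19). The groups did not overlap, though the BDL arrays were themselves apart. Cxcl13 was at least 1.95-fold higher in BDL, taking the lowest signal well above background on each sham array as the bound (group means -6.27 and -3.98, adjusted p = 0.861). The bound rested on BDL replicate 2, and was 1.13-fold without it and 3.37-fold without BDL replicate 1. The fitted difference of 2.29 sets BDL against signals at background, and was 0.72 with normexp background correction. Cxcl13 entered the comparison through the BDL arrays alone, so its higher level there is in part set by the filter. Its receptor gene Cxcr5, found on B cells and follicular helper T cells, was not well above background anywhere.

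Ccl19, a CCR7 ligand of lymphoid stroma, was at 1.66 and -0.11 in sham kidneys and at 0.33 and 0.44 in BDL kidneys. The difference was -0.39 (SE 0.62, adjusted p = 0.930), and 0.49 without sham replicate 1. The further 2 probes of Ccl19 gave -0.40 and -0.11 with overlapping groups. Near-identical copies of this gene exist in the mouse genome, and its probes may read several of them.

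Markers of B and plasma cells stood on the other side from Cxcl13. Of 7 kept members of 12 listed, 4 were lower in BDL with no overlap and 0 higher (19.2% and 17.4% of all features), with a median difference of -0.84 (-0.92 without sham replicate 1). The summed signal of the 7 was 52.6 to 61.2 in sham and 54.6 to 60.2 in BDL kidneys, in units of the 75th percentile. The groups overlapped on that scale, but Xbp1 alone made up most of each sum. Xbp1 was at 5.85 and 5.62 in sham and at 5.71 and 5.84 in BDL kidneys. Ms4a1, the gene of CD20, was at least 2.35-fold lower (adjusted p = 0.673), and Cd79b, a subunit of the B cell receptor, was 2.04-fold lower (-1.03, SE 0.21, adjusted p = 0.720). Cd79a was not kept. Of 10 listed markers of lymphatic vessels and lymph node stroma 7 were kept, with a median of 0.56 (0.11 without sham replicate 1), and Lyve1 was not well above background anywhere.

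Of the 9 kept receptors, 5 had both BDL arrays below both sham arrays, where the share over all features was 19.2%. Most of these are receptors of lymphocytes. Cxcr3, the receptor of CXCL9 and CXCL10 on effector T and NK cells, was at -1.58 and -2.18 in sham kidneys and at -2.99 and -2.84 in BDL kidneys. The groups did not overlap, and the BDL arrays were close to each other. The difference was -1.04, or 2.05-fold lower (SE 0.28, adjusted p = 0.812), with a 95% interval from 0.293-fold to 0.808-fold before adjustment. It ranged from -1.34 to -0.74 as each array was left out in turn.

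Cxcr6, the receptor of CXCL16 on tissue-resident T and NKT cells, was at -0.78 and -1.34 in sham kidneys and at -1.76 and -2.11 in BDL kidneys. The groups did not overlap, and sham replicate 1 was highest, as for Cxcr3. The difference was -0.88, or 1.84-fold lower (SE 0.29, adjusted p = 0.862), and -0.59 without sham replicate 1. A further Cxcr6 probe gave -0.82 (SE 0.27), again with no overlap.

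Ccr6, the CCL20 receptor of B cells and Th17 cells, was at -2.74 and -1.89 in sham kidneys and at -4.57 and -3.29 in BDL kidneys. Here sham replicate 2 was the highest array, unlike in most members. The difference was -1.62, or 3.07-fold lower (SE 0.54, adjusted p = 0.867), and it was -2.04 without sham replicate 1, -0.98 without BDL replicate 1 and -0.88 with normexp background correction. Ccr7, which leads naive T cells and dendritic cells to lymph nodes, was at -1.72 and -2.26 in sham and at -2.86 and -2.51 in BDL kidneys. Its difference was -0.69 (SE 0.28, adjusted p = 0.872), without overlap. Ccr3, the eosinophil receptor, was 2.29-fold lower (-1.20, SE 0.55) and detected above background in only 1 BDL kidney. It differed by -0.45 with normexp. These 5 receptors differed in the same direction under each alternative that kept them. For leaving out an array this was fixed in advance, because their groups did not overlap.

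T and NK cell markers were also lower. Of 15 kept genes of 19 listed, 7 were lower in BDL with no overlap and 0 higher (19.2% and 17.4% of all features), with a median of -0.60 (-0.27 without sham replicate 1). Their summed signal was 16.4 and 9.66 in sham and 10.5 and 8.89 in BDL kidneys, and sham replicate 1 was the highest array in 14 genes. Cd3g, a T cell receptor subunit, was at -2.38 and -3.26 in sham and at -3.65 and -3.90 in BDL kidneys. Cd3e was at 1.09 and 0.63 against 0.62 and -0.08, so the groups were barely apart. Klrd1, an NK cell receptor, was 2.38-fold lower (-1.25, SE 0.35, adjusted p = 0.851), and Lck differed by -0.58 (SE 0.27). The part of the number of lymphocytes in the receptor values was not tested.

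Myeloid receptors differed less evenly. Cxcr2, the neutrophil receptor of CXCL1, CXCL2 and CXCL5, was at -3.58 and -7.20 in sham kidneys and at -2.55 and -3.40 in BDL kidneys. Sham replicate 2 was not well above background and sat far below the others, while sham replicate 1 lay just under the lower BDL value. The difference of 2.41 (SE 1.24, adjusted p = 0.872) was 0.60 without sham replicate 2, and 0.75 with normexp background correction. Without sham replicate 1 only a bound remained, at least 4.62-fold higher in BDL. Cxcr2 too entered the comparison through the BDL arrays alone. Sham replicate 2 was also the lowest array for 6 of the 10 kept neutrophil markers, of 13 listed, and sham replicate 1 for the other 4. It was at -1.81 for S100a8 against 1.25 in sham replicate 1 and 2.28 and 1.32 in BDL kidneys, and at -5.01 for Retnlg against -1.89, -0.09 and -1.13. Of these 10, 4 were higher in BDL with no overlap and 0 lower (17.4% and 19.2% of all features), with a median of 0.57. Mpo and Retnlg, both among these 4, entered the comparison through the BDL arrays alone. The summed signal of the 10 was 109 and 136 in sham and 137 and 147 in BDL kidneys. Csf3r alone made up most of each sum, at 6.48 and 7.03 in sham and at 6.63 and 6.99 in BDL kidneys. Unlike S100a8 and Retnlg, it was highest on sham replicate 2. The part of neutrophil number in Cxcr2 was not tested.

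Ccr2, the monocyte receptor of CCL2, was at -1.02 and -2.54 in sham and at -1.87 and -1.42 in BDL kidneys. Both BDL values lay between the sham values. The difference was 0.13 (SE 0.56), with a 95% interval from 0.394-fold to 3.05-fold. Ccr1 was not well above background anywhere. Ccr9, the CCL25 receptor, differed by -0.01 (SE 0.23), with an interval from 0.652-fold to 1.52-fold. Cxcr4, the CXCL12 receptor, differed by 0.31 (SE 0.27), with an interval from 0.762-fold to 2.02-fold. Among 19 kept markers of monocytes, macrophages and dendritic cells, of 23 listed, 2 were higher and 4 lower in BDL with no overlap (17.4% and 19.2% of all features). Their median was -0.13, and 0.48 without sham replicate 1, the highest array in 13 of them. Their summed signal was 1031 on sham replicate 1, 320.4 on sham replicate 2 and 328 and 287 on the BDL arrays. Ly6c1, H2-Ab1 and Cd74 made up most of the sum on sham replicate 1. They were at 8.64, 8.47 and 7.72 there and at 7.78, 4.98 and 4.29 on sham replicate 2, while Csf1r was at 5.40 and 5.27. Cd14, an LPS co-receptor of monocytes, was 1.75-fold higher (0.81, SE 0.21, adjusted p = 0.804), while Clec9a, a marker of cross-presenting dendritic cells, was 2.17-fold lower (-1.12, SE 0.39). Csf1r differed by -0.45 (SE 0.19) and Adgre1 by -0.09 (SE 0.43).

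**Figure D4:**
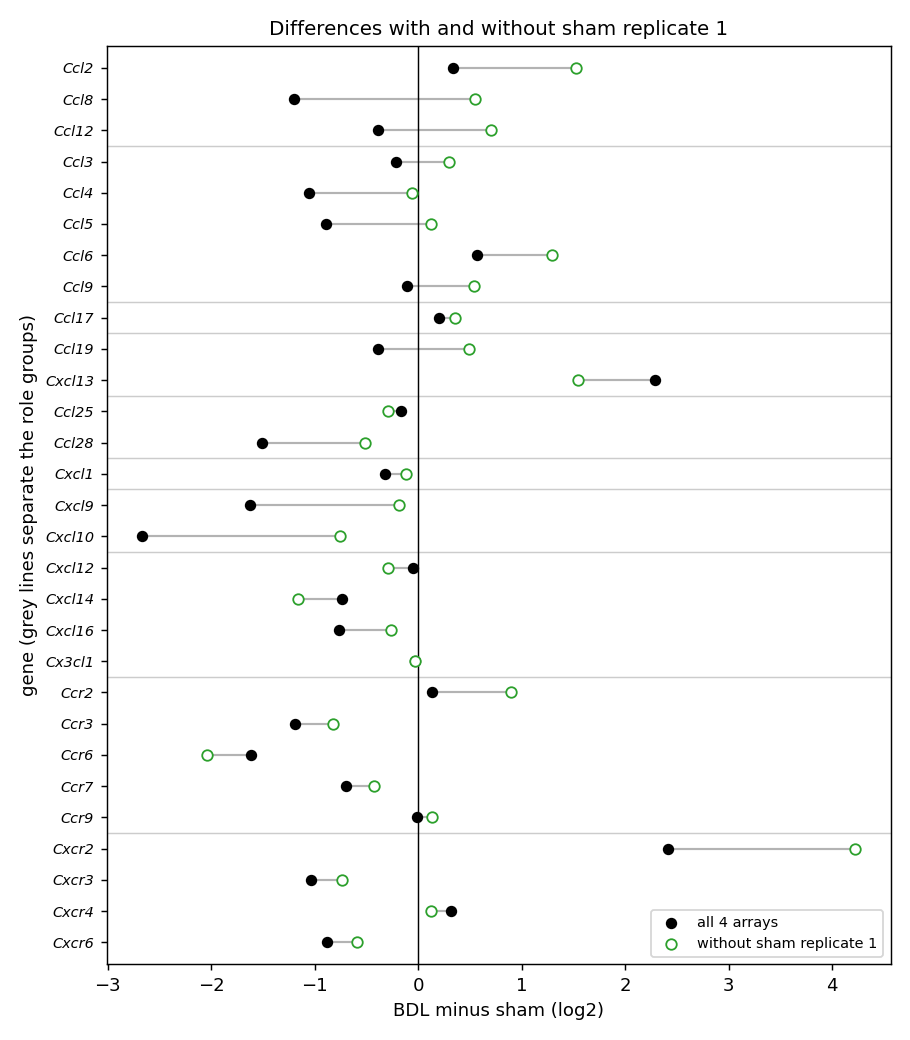
BDL minus sham difference (log2, x axis) of the 29 kept members, by gene (y axis), with all 4 arrays (filled) and without sham replicate 1 (open). Cxcl10 moves from -2.67 to -0.76 and Ccl8 from -1.20 to 0.54, while Cxcr3 (-1.04 to -0.74) and Ccr6 (-1.62 to -2.04) stay below 0. The groups of Cxcl10, Cxcr3 and Ccr6 did not overlap, so leaving out an array cannot turn their sign. The open points of Cxcl13 and Cxcr2 are set against a sham signal not well above background, so their sizes are not measured.

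Neutrophil-attracting ligands were mostly too dim to compare. Cxcl1 was at -1.74 and -2.15 in sham kidneys and at -3.36 and -1.17 in BDL kidneys. The BDL arrays lay on either side of the sham arrays. The difference was -0.32 (SE 0.76, adjusted p = 0.954), and 0.77 without BDL replicate 1. Cxcl2 and Cxcl15, a chemokine of the lung, were not well above background anywhere. Cxcl5 was well above background on BDL replicate 1 alone (-4.55), where urothelial and adipocyte markers were also high. The summed signal of 9 kept urothelial markers of 10 listed was 72.9 there and 13.8 to 21.5 on the other arrays, and Upk1b stood at 1.53 against -4.82 in BDL replicate 2. For 4 kept adipocyte markers of 8 listed it was 177 there and 14.2 to 29.7 elsewhere, and Adipoq was well above background on replicate 1 of each group alone. Krt20, a urothelial keratin, was at 1.81 on that array, against -3.54, -4.93 and -4.82. Ccl11, the eosinophil attractant, was well above background on the same array alone (-4.38). The part of urothelial and adipocyte RNA in these 2 ligands was not tested.

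Among epithelial ligands, Ccl28 had a high sham array too. Ccl28, a mucosal chemokine of epithelia that binds CCR10 and CCR3, was at 5.06 and 3.08 in sham kidneys and at 1.94 and 3.18 in BDL kidneys. Sham replicate 1 was high and BDL replicate 1 low, while the other arrays were nearly equal. The difference was -1.51 (SE 0.80, adjusted p = 0.872), and -0.52 without sham replicate 1. Ccl25, a ligand of CCR9, differed by -0.16 (SE 0.24), and its dim second probe gave 1.11 (SE 0.54), so the probes disagree. Ccl20, the CCR6 ligand, was not well above background anywhere.

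Of the homeostatic and membrane-bound ligands 4 of 5 were kept, with differences from -0.76 to -0.03. Cx3cl1, or fractalkine, which tethers monocytes to vessels and tubules, was at 3.24 and 3.23 in sham and at 3.07 and 3.33 in BDL kidneys. Its difference was -0.03 (SE 0.20), with a 95% interval from 0.672-fold to 1.42-fold. Cxcl12, which holds CXCR4-bearing cells in place, differed by -0.05 (SE 0.26), with an interval from 0.599-fold to 1.56-fold, and a probe of another transcript gave 0.14 (SE 0.23). Differences within these intervals were not detectable with 2 arrays per group. Cxcl16, a transmembrane ligand and scavenger receptor, was at 2.32 and 1.32 in sham and at 0.82 and 1.29 in BDL kidneys. It was 1.70-fold lower (-0.76, SE 0.41, adjusted p = 0.872), and by -0.26 without sham replicate 1, with no overlap in either case. Cxcl14, an epithelial chemokine, differed by -0.74 (SE 0.49). Xcl1, released by NK and CD8 T cells, was well above background on sham replicate 1 alone (-3.51) and was at least 1.76-fold lower in BDL by the group means. That bound rested on sham replicate 1, without which no group showed Xcl1 well above background.

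Of the Th2 and eosinophil ligands 1 of 3 was kept. Ccl17, a CCR4 ligand of dendritic cells, was at -2.22 and -2.52 in sham and at -1.83 and -2.51 in BDL kidneys, a difference of 0.20 (SE 0.31). Ccl22, the other CCR4 ligand, was well above background on BDL replicate 2 alone. Of 10 listed markers of mast cells and eosinophils 3 were kept, with a median of 0.18, and Cpa3, the mast cell protease, was not well above background anywhere. Of these 3 genes, 1 was higher and 1 lower in BDL with no overlap (17.4% and 19.2% of all features). The higher was Il5ra (0.85, SE 0.30) and the lower Tpsb2 (-0.33, SE 0.19).

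Chemokine genes outside the 40 were mostly higher in BDL. Of 23 listed, 11 were kept and 0 passed the test. In 7 both BDL arrays lay above both sham arrays (17.4% of all features), and in 1, Ccrl2 (-0.46, SE 0.27), below (19.2% of all features). Of the 7, Ccl24 and Ackr1 entered through the BDL arrays alone. The median difference was 0.51. Ackr2, a decoy receptor that degrades inflammatory CC chemokines, was at -2.36 and -2.29 in sham kidneys and at -1.05 and -1.37 in BDL kidneys. Both arrays of each group lay close together, and the difference was 1.12, or 2.17-fold (SE 0.22, adjusted p = 0.673). Ackr1, the Duffy antigen receptor of venules and red cells, had only a bound, because neither sham array showed it well above background, and was at least 1.63-fold higher (fitted 1.65, SE 0.52). Without BDL replicate 1 no fold could be bounded for Ackr1. Ccl24, an eosinophil attractant of macrophages, was likewise not well above background in sham kidneys and was at least 1.63-fold higher (fitted 1.24, SE 0.35). Ackr3, the scavenger of CXCL12, differed by 0.51 (SE 0.32) and Cx3cr1, the fractalkine receptor, by 0.48 (SE 0.24), both without overlap.

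The platelet chemokine genes rested on 1 array. Ppbp was at -2.45 and -1.89 in sham and at 1.25 and -1.31 in BDL kidneys, and Pf4 at -0.33 and -0.15 against 3.03 and -0.04. BDL replicate 1 was far above the rest. The differences were 2.14 (SE 0.89) and 1.73 (SE 1.04), and 0.86 and 0.20 without that array. Ccr8 and Ccl27a overlapped between the groups (-0.22, SE 0.29, and 0.12, SE 0.38). Ccl21a, Ccl21b and Ccl21c were not matched to a probe, and the other 9 genes were not kept.

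Signalling genes downstream of the receptors had a median difference of 0.02. Of 20 kept genes of 23 listed, 3 were higher and 4 lower in BDL with no overlap, near the shares over all features (17.4% and 19.2%), and 0 passed the test. Dock2, a leukocyte exchange factor that couples receptors to RAC, was at least 1.70-fold lower, as neither BDL array showed it well above background (fitted -1.08, SE 0.28, adjusted p = 0.804). It was at -4.05 and -4.69 in sham and at -5.41 and -5.50 in BDL kidneys, with no overlap. Arrb1, a beta-arrestin that switches receptors off, differed by -0.54 (SE 0.21).

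Inducers and adhesion molecules were mostly kept. Of 19 kept inducers of 24 listed, 5 were higher and 2 lower with no overlap (17.4% and 19.2% of all features), and 0 passed the test, with a median of 0.03. Il1b was at -1.75 and -3.96 in sham and at -1.63 and -1.61 in BDL kidneys (1.23, SE 0.76). Tnf, Il6, Il1a and Il17a were not well above background anywhere. Of 15 kept adhesion genes of 16 listed, 5 were higher and 1 lower with no overlap (same shares), and 0 passed the test, with a median of 0.18. Jam3 and Jam2, junctional molecules that leukocytes cross, differed by 0.72 (SE 0.23) and 0.96 (SE 0.36). Endothelial markers, 12 of 12 kept, had a median of 0.19 and of -0.08 without sham replicate 1, with Pecam1 at 0.18 (SE 0.25).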

How the data were processed

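Per the file headers, the scans were quantified with Feature Extraction 11.0.1.1 (Agilent). Its deposited processed signal is a linear intensity after background subtraction and spatial detrending, with no scaling across arrays, per the file headers. Raw median intensities and the spot flags, also deposited by the authors, were used as well. The authors' deposited value table holds linear intensities, and the processed signal of an array was a fixed multiple of its column (709, 844, 739 and 939.8, all shared probes within 1%). The column medians were 0.328 and 0.339 for sham and 0.329 and 0.330 for BDL. What each constant was set on stays unknown.

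Control and outlier spots were dropped, spots of a probe averaged, and log2 signals set relative to the 75th percentile of each array. No spot was saturated (0 spots). No slide or scan block could be fitted, with 1 slide and 1 scan time for all 4 arrays. Probes were named by unversioned accession through a RefSeq table of GRCm38.p6, while the array grid lists mm9, so no probe is given a position. Promoter coordinates and the order of neighbouring genes are those of GRCm38.p6. It named 27229 of 55668 probes. A gene was represented by its kept probe with the highest mean signal, which gave 24043 features.

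BDL was set against sham in limma 3.58.1, run under R 4.3.3 (operation as the only term, two-sided, Benjamini-Hochberg over all features). The fit was tested on simulated data. With 2 arrays a group, exact permutation cannot reach 0.05, so none was run. If no array of the dimmer group showed a gene well above background, its fold is given as a bound (at least N-fold). The bound divides the bright group's mean by that of the dim group after raising each dim value to the array's lowest signal well above background. With 2 arrays per group, their number limits the precision. The members and gene lists were chosen with earlier results of these data known. Named are all members and other chemokine genes, and up to 4 genes with the smallest p and the defining genes of each list, though not each of these is reported. Genes named beyond this rule, such as Irf1 and Krt20, were chosen after their values were seen. Some genes of the lists are counted but not reported here. Alternatives were another background correction, scaling, filter, probe rule or value table, array weights, a replicate block and leaving out each array. The other background correction was normexp with an offset of 50 intensity units.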

Additional observations from a re-analysis of the deposited data

How the results depend on the processing

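Under each of the 13 alternatives, 0 features and 0 members had an adjusted p under 0.05, and the smallest adjusted p of a member was 0.254. With 2 arrays per group the fit has little power, so this count says nothing about stability. The sign of the difference turned in 15 of the 29 members under at least 1 alternative, in 25 of 372 values. It held under all alternatives run for 14, of which 11 were lower in BDL and 3 higher. Among these 14 are the 10 members without overlap, whose sign cannot turn when an array is left out. As each array was left out, the median of the members ranged from -0.86 to -0.03. The count of members lower without overlap ranged from 10 to 19 and of those higher from 4 to 11, where 3 arrays separate more genes by construction. Without sham replicate 1, 11 were higher and 11 lower, against 34.9% and 34.7% of all features. With only genes well above background on all 4 arrays, 0 members were higher without overlap, because Cxcl13 and Cxcr2 leave the set.

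Leaving out arrays turned the signs of Ccl2 (-0.86 to 1.53), Ccl3 (-0.73 to 0.30), Ccl5 (-1.91 to 0.12), Ccl6 (-0.15 to 1.29), Ccl8 (-2.94 to 0.54), Ccl9 (-0.75 to 0.54), Ccl12 (-1.47 to 0.70), Ccl17 (-0.14 to 0.54), Ccl19 (-1.28 to 0.49), Ccl25 (-0.35 to 0.0276), Cxcl1 (-1.41 to 0.77), Cxcl12 (-0.29 to 0.195), Cx3cl1 (-0.16 to 0.10), Ccr2 (-0.63 to 0.89) and Ccr9 (-0.16 to 0.14). Other alternatives turned Cx3cl1 (0.0044 with normexp), Ccr9 (0.0145 with quantile normalization and 0.0144 with median centring), and, with the mean over a gene's probes, Ccl25 (0.47) and Cxcl12 (0.0477). Normexp correction also moved the differences of dim members toward 0 by over 1.5 times, among them Ccl4 (-0.65), Ccr6 (-0.88), Ccr3 (-0.45), Cxcl13 (0.72) and Cxcr2 (0.75). The normexp correction was run with an offset of 50 intensity units, which draws log2 differences of dim probes toward 0 by construction. The part of the offset in these shifts was not tested. The cause of the other turns was not tested, except that the probe means of Ccl25 and Cxcl12 include the further probe of each gene.

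The groups share replicate numbers in the labels, and the treatment protocol speaks of 2 pairs of RNAs. Whether the numbers pair sham and BDL animals is not clear from it, so the main fit was unpaired. Same-numbered arrays deviated from their group means with a correlation of 0.06 over the features, and 2 pairs are too few to read a pairing from it. With the replicate block, 0 features and 0 members passed and the median of the members was -0.39. Members that were not well above background are limited by signal over background, not by the test.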
